A study of Aspergillus luchuensis with 6 samples.

Results

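Scaffold DF126449.1 of Aspergillus luchuensis mut. kawachii, a mould used to make koji for distilled spirits, carries a block of start sites that were used more in a strain without laeA. Start sites were read by CAGE (cap analysis of gene expression), in which a short tag marks the capped 5′ end of an RNA, so that tag positions show where transcription starts and tag numbers show how often. All positions of the scaffold were taken, and those that reached 0.1 CPM (tags per M tags counted) over all libraries were joined, strand by strand, into tag clusters across distances of up to 20 bp. Clusters with at least 1 CPM were kept, which gave 1150 of the 21824 tag clusters of the whole table. At this minimum the weakest cluster kept on the scaffold had 1.01 CPM over all libraries, and the strongest of the 2223 left out had just under 1 CPM. The scaffold was chosen by the levels of the same 6 libraries, in which neighbouring start sites between positions 389747 and 416435 differed between the strains. The level differences given here are therefore a description. Where clusters are said to be called higher or lower in a fit over the whole table, the call is a label for those values and is not evidence for the block.

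LaeA is a putative methyltransferase known in Aspergillus species as a global regulator of secondary metabolism. Fungal genes for a secondary metabolite often lie side by side on a chromosome and are switched on and off together. Each gene usually has a start site of its own, and neighbouring genes can lie on either strand. No gene annotation or sequence on these scaffolds was used here, so start sites are given by position and strand, without gene names. The strain labels could therefore not be checked through the tags of laeA, which was not analysed here.

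Mycelia of a control strain (strain label ctrl345, genotype label control) and of a strain whose genotype label is a laeA deletion (strain label sirD, whose meaning is not explained in the labels) were compared, with 3 libraries each. The labels do not say whether the strains share a parent, or whether the deletion strain is a single clone. Per the labels, both were grown from conidia with shaking at 30 °C, for 36 h in M medium and then for 12 h in CAP medium. The labels do not say that the libraries of a strain came from separate cultures, so the spread between them may be technical. In RNA from whole mycelium, use of a start site by more hyphae and stronger use in each cannot be told apart.

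The control libraries held 18.0 to 19.3 M tags and the disruptant libraries 14.8 to 17.3 M. Scaffold DF126449.1 took 3.88% to 4.71% of the tags of a control library and 4.26% to 4.86% of those of a disruptant library, so that the ranges overlapped. Tags on the scaffold ran from position 413 to position 1569918, and 93.2% of them lay in tag clusters. A floor of 3 tags in a library corresponds to 0.162 to 0.219 CPM on the scale used below, which divides counts by effective library sizes. Tags carried no molecular identifiers, so floors and counting intervals cover counting error only.

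The highest ratios of disruptant to control along the scaffold, in 10 kb bins, were in the block. Summed over the tag clusters of the block, the level was 52.3, 70.0 and 67.2 CPM in controls 1, 2 and 3 and 875, 1562 and 1001 CPM in disruptants 1, 2 and 3. The lowest disruptant library was thus far above the highest control library. The means were 63.2 ± 9.51 and 1146 ± 366 CPM (SD, n = 3 each), a ratio of 18.1. Summed over the 1134 clusters elsewhere on the scaffold, the means were 44413 ± 2752 CPM in the controls and 42207 ± 1722 CPM in the disruptant (SD, n = 3 each). Those library ranges overlapped, and the log2 ratio of -0.07 was smaller than the larger SD of log2 level within a strain, 0.09. This sum pools unlike sides. Left of the block the clusters summed to 7757 ± 536 CPM in the controls and 5840 ± 176 CPM in the disruptant, without overlap (log2 ratio -0.41). Right of it the ranges overlapped (log2 ratio -0.01).

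**Figure D1:**
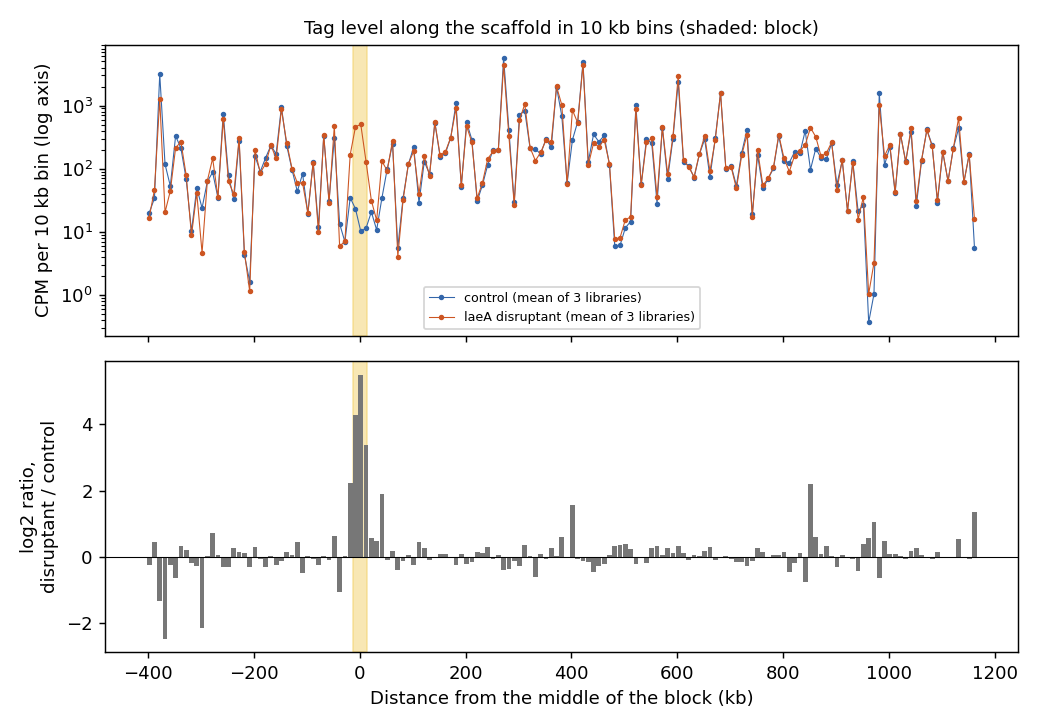
Tag level along the scaffold in 10 kb bins, by distance from the middle of the block in kb. The upper panel gives the mean CPM of the 3 libraries of each strain on a log axis and the lower panel the log2 ratio of disruptant to control (1 CPM added to both). The 4 bins that hold the block (shaded) have ratios of 2.23, 4.26, 5.50 and 3.38, and 144 of the 153 other bins lie within 1 of zero.

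In 10 kb bins of all tags, the 4 bins that hold the block ranked 120, 134, 148 and 145 by level among the 157 bins of the scaffold in the controls. In the disruptant the same bins ranked 68, 22, 19 and 85. The block thus passed from the weak end of the scaffold to its middle and upper part. Over the other 153 bins the log2 ratio had a median of 0.03 and ran from -2.47 to 2.20, with 5 bins at or above 1 and 4 at or below -1.

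Of the 1150 clusters, 1148 had enough tags for the fit over all clusters of the table. In that fit 57 of them were called higher in the disruptant (edgeR's quasi-likelihood test at an adjusted p under 0.05, by Benjamini and Hochberg), against 4.10% of all clusters tested. Another 35 were called lower. Together these are 92 calls, or 8.01% of the scaffold's clusters, beside 8.11% over all 21803 clusters tested. Of the 16 clusters of the block 14 were called higher and none lower, and of the 1132 tested elsewhere 43 (3.80%) were called higher and 35 (3.09%) lower. These calls come from the contrast that chose the scaffold and are printed only to describe it. The minimum of 1 CPM was set on tags pooled over both strains, so clusters nearly silent in the controls entered through the disruptant. Among them, those at positions 393431 to 393437, 399694 to 399729 and 401965 to 402001 had 15, 9 and 0 control tags in total. The share of the block called cannot be read apart from how clusters were kept. The count of 92 calls on the scaffold moved when single libraries were left out. Without control 1, 2 or 3 it was 46, 59 and 122, and without disruptant 1, 2 or 3 it was 67, 54 and 49. The share called over the whole table fell and rose in the same fits, against 8.11% with all libraries. It was lowest without disruptant 3 (3.41%) and highest without control 3 (10.3%), so these shifts are not particular to the scaffold. The 14 of the block were called in each of these fits.

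The block spans 26.7 kb, from position 389747 to position 416435, or 1.70% of the scaffold's length. Its 16 clusters fall into 8 loci when clusters at most 2000 bp apart on a strand are merged, 4 on each strand. They are numbered 1 to 8 here in order of position. The order of strands is plus, minus, plus, minus, minus, plus, minus, plus. Loci 2 and 3, 5 and 6, and 7 and 8 point away from each other, with 1280, 135 and 737 bp between them. Loci 1 and 2, 3 and 4, and 6 and 7 point toward each other, at 3575, 2210 and 11008 bp.

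**Figure D2:**
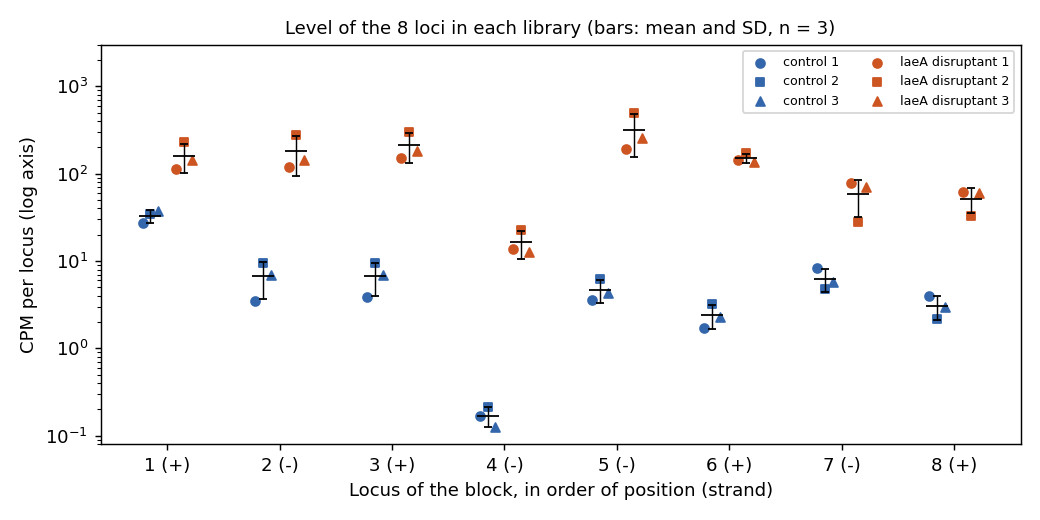
Level of the 8 loci of the block in each library in CPM on a log axis, with the strand of each locus and bars for the mean and SD (n = 3). At every locus the 3 disruptant libraries lie above the 3 control libraries. Locus 1 has the highest control level and locus 4 the lowest.

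Locus 1 was a single cluster on the plus strand at positions 389747 to 389855. It held 27.0, 34.5 and 37.8 CPM in controls 1, 2 and 3 and 114, 228 and 143 CPM in disruptants 1, 2 and 3. It was the only locus of the block that was well used in the controls, where it took 49.2% to 56.3% of the block's cluster tags, and it had the smallest ratio of means, 4.88 (log2 fold change 2.29, SE 0.29). In the disruptant libraries its share was 13.0% to 14.6%.

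Locus 2, on the minus strand at positions 393431 to 393828, held 3.52, 9.51 and 6.93 CPM in the controls and 120, 280 and 144 CPM in the disruptants. Most of this came from its middle cluster, at positions 393550 to 393657, with 39, 133 and 45 tags in the controls and 2088, 3852 and 1884 in the disruptants (log2 fold change 5.41, SE 0.54). A small cluster at positions 393431 to 393437 had 2, 9 and 4 tags against 60, 112 and 52. Its ratio from summed tags was 16.9 (95% exact counting interval 10.03 to 30.7). The third cluster of the locus, at positions 393814 to 393828, behaved otherwise. Its 22, 34 and 60 control tags and 18, 35 and 33 disruptant tags overlapped (1.95 ± 0.83 CPM in the disruptant and 2.29 ± 1.35 CPM in the controls; SD, n = 3).

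Locus 3, on the plus strand at positions 395109 to 397483, had 4 clusters whose ratio grew along the strand. The first, at positions 395109 to 395122, had 15, 18 and 12 tags in the controls and 18, 31 and 14 in the disruptants, and was not called (log2 fold change 0.69, SE 0.42). The next pair, at positions 395507 to 395532 and 395584 to 395602, had log2 fold changes of 2.74 (SE 0.37) and 3.07 (SE 0.34). The last, at positions 397307 to 397483, was the strongest cluster of the block over all libraries. It had 34, 131 and 73 control tags and 2591, 4083 and 2311 in the disruptants, from 4.54 ± 2.59 to 199 ± 75.7 CPM (SD, n = 3; log2 fold change 5.45, SE 0.51).

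Locus 4, a weak cluster on the minus strand at positions 399694 to 399729, had 3, 4 and 2 tags in the controls, close to the floor. The disruptants held 245, 326 and 172 tags (16.3 ± 5.63 CPM; SD, n = 3). The ratio from summed tags was 93.4 (95% exact counting interval 48.9 to 205), its upper bound set by 9 control tags.

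Locus 5, on the minus strand at positions 401965 to 404039, was the strongest locus of the block in the disruptant, with 194, 497 and 254 CPM against 3.58, 6.27 and 4.32 CPM in the controls. Its clusters at positions 402024 to 402158 and 403887 to 404039 had log2 fold changes of 5.74 (SE 0.43) and 6.54 (SE 0.48). The latter is the largest fitted value of the block among clusters with control tags: 18, 34 and 22 tags against 1536, 3123 and 1307. The small cluster at positions 401965 to 402001 had 0 tags in each control and 46, 93 and 62 in the disruptants. Against a floor of 3 tags per control library, its level was at least 26.1-fold higher.

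Locus 6, on the plus strand at positions 404175 to 404370, held 1.73, 3.19 and 2.29 CPM in the controls and 142, 172 and 138 CPM in the disruptants. It lies back to back with locus 5, 135 bp away, and relative to their mean the disruptant libraries differed less there than at any other locus (150 ± 18.5 CPM; SD, n = 3). Its log2 fold change was 5.96 (SE 0.29).

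Loci 7 and 8 lie beyond a stretch of 11008 bp without any cluster. Locus 7, on the minus strand at positions 415379 to 415614, held 8.39, 4.75 and 5.79 CPM in the controls and 78.3, 28.0 and 69.8 CPM in the disruptants. Locus 8, on the plus strand at positions 416352 to 416435, held 3.97, 2.16 and 2.99 CPM against 61.5, 32.6 and 60.2 CPM. Both had smaller ratios of means, 9.30 and 16.9, than loci 2 to 6, whose ratios ran from 27.2 at locus 2 to 95.7 at locus 4.

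Over the 14 called clusters of the block the median log2 fold change was 4.75 as fitted, and 4.39 with the cluster at 0 control tags set to its bound. The median over all clusters tested was -0.01. The medians of the block include clusters that reached the minimum mainly through disruptant tags. All 14 were higher in each disruptant library than in any control library, which over the table held for 16.3% of clusters, and so was the first cluster of locus 3, which was not called.

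**Figure D3:**
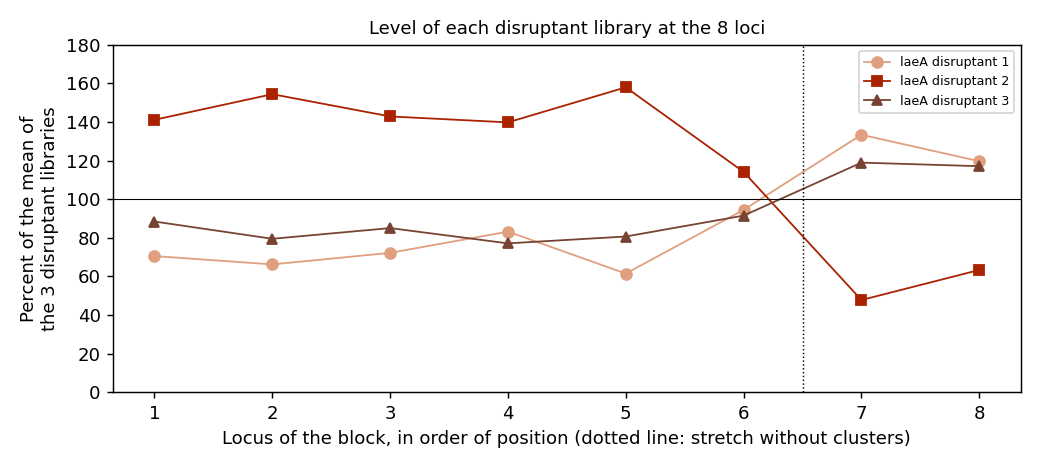
Level of each disruptant library at the 8 loci, as a percent of the mean of the 3 disruptant libraries. Disruptant 2 is the highest at loci 1 to 6, at 114% to 158% of the mean, and the lowest at loci 7 and 8, at 47.8% and 63.3%.

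The replicates ordered the loci in 2 sets. Before the stretch without clusters, disruptant 2 was the highest disruptant library in all 13 clusters, called or not. After it, disruptant 2 was the lowest in all 3 clusters. Over the scaffold's tested clusters disruptant 2 was the highest in 41.2% and the lowest in 37.4%, so neither place is rare for it. Among the controls, control 2 was the highest in 8 of the 11 called clusters of loci 1 to 6 and control 1 in all 3 of loci 7 and 8. Loci 7 and 8 made up 15.97%, 3.88% and 13.0% of the block's cluster tags in disruptants 1, 2 and 3, and 23.6%, 9.88% and 13.1% in controls 1, 2 and 3. With 3 libraries a strain, these orders are given with no test.

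Strand balance differed with the loci in use. Of all tags in the block, 68.4% to 70.7% were on the plus strand in the controls, where locus 1 dominated, and 47.9% to 53.9% in the disruptants. The minus strand of the block went from 24.1 ± 3.51 to 616 ± 234 CPM and the plus strand from 54.6 ± 8.45 to 639 ± 153 CPM (SD, n = 3 each).

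**Figure D4:**
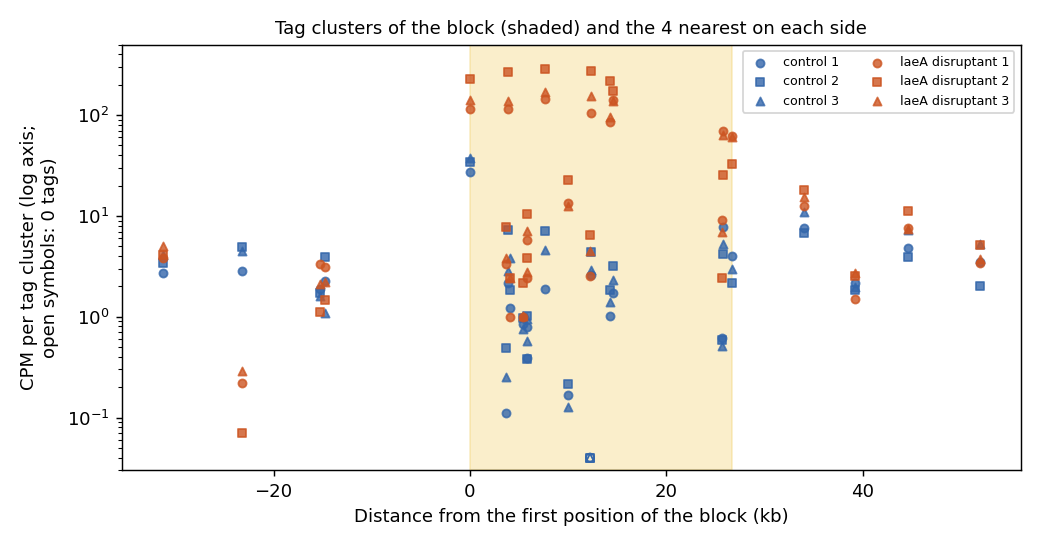
Tag clusters of the block (shaded) and the 4 nearest on each side, by distance from the first position of the block in kb, with the CPM of each library on a log axis and open symbols for 0 tags. Of the 4 clusters on the left, the disruptants lie below the controls without overlap at one and overlap them at the rest. Of the 4 clusters on the right, the disruptants lie above the controls without overlap at the first and the third and overlap them at the other two. Over all clusters tested, 16.3% lie above and 13.0% below without overlap.

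The edges of the block fell in stretches with few start sites. To the left, 14701 bp without a cluster separated locus 1 from the next cluster, and to the right 7279 bp followed locus 8. Of the 1136 distances between neighbouring clusters of the scaffold, whose median was 226 bp, these ranked sixth and 35th in length, and the stretch inside the block ranked 11th. The block itself held 5.99 clusters per 10 kb against 7.35 over the rest of the scaffold.

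On the left the nearest cluster, on the plus strand at positions 375002 to 375045, had 40, 73 and 17 tags in the controls and 56, 21 and 30 in the disruptants. The next, on the minus strand at positions 374468 to 374473, held 34, 32 and 25 against 60, 16 and 29. At both the strains overlapped. The third, on the plus strand at positions 366499 to 366524, went the other way, with 51, 90 and 70 control tags and 4, 1 and 4 disruptant tags. It was called lower (log2 fold change -4.32, SE 0.48) and lies 23223 bp from the block. The fourth, on the minus strand at positions 358435 to 358468, had 48, 63 and 64 tags against 69, 58 and 69 (log2 fold change 0.35, SE 0.28).

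On the right the nearest cluster, on the minus strand at positions 423715 to 423739, was higher in every disruptant library than in any control without being called. It held 8.45 ± 2.14 CPM in the controls and 15.4 ± 2.79 CPM in the disruptants (SD, n = 3; log2 fold change 0.87, SE 0.26). The next 3, at positions 428950 to 428986, 434354 to 434397 and 441654 to 441666, had log2 fold changes of 0.16, 0.72 and 0.20 and were not called. The fifth, on the plus strand at positions 442612 to 442677, singled out here after its values were seen, was called higher. It held 24.3, 15.5 and 31.3 CPM in the controls and 66.5, 170 and 103 CPM in the disruptants (log2 fold change 2.26, SE 0.38). Disruptant 2 was the highest there, which held for 41.2% of the scaffold's tested clusters.

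How far the block reaches depends on how weak clusters inside it are read. A walk outward from its strongest cluster, stopping before 2 consecutive clusters with a log2 fold change under 1, covered 11 clusters from position 395507 to position 416435. The third cluster of locus 2 and the first of locus 3, which lie next to each other, ended it on the left and left out loci 1 and 2. The same extent came with scaling by library size alone, a replicate term, a log2 cutoff of 2, and without any 1 library other than control 3. With positions joined at up to 50 bp the walk covered 10 clusters from position 395435 to position 416463. With 0.5 CPM as the minimum per position, the same walk covered 15 clusters from position 389756 to position 416430. Stopping at 3 such clusters, a choice made after this was seen, gave all 16 clusters from position 389747 to position 416435. Without control 3 the walk ran on to the right, to position 442677.

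Apart from level, the place of the starts within a cluster can differ, and this measure did not enter the choice of the scaffold. The share of tags upstream of the median position of all libraries was compared in clusters where no library had under 10 tags, 951 on the scaffold and 18133 in the table. None of them was called (limma, Benjamini-Hochberg adjusted p under 0.05, 0.00% of the table), with 75 on the scaffold and 1318 in the table (7.27%) at an unadjusted p under 0.05. edgeR's diffSpliceDGE on the same counts also called none, with 19 on the scaffold at an unadjusted p under 0.05, beside 2.26% of the table by that method. The 3 clusters of the scaffold with the smallest p all lay outside the block, at positions 1023527 to 1023536, 923765 to 923792 and 1434041 to 1434047 on the minus strand, each with an adjusted p of 0.499 by limma. At the first, 18.8%, 18.2% and 15.7% of control tags and 7.69%, 8.33% and 6.06% of disruptant tags lay upstream. At the other two the disruptant shares were the higher.

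**Figure D5:**
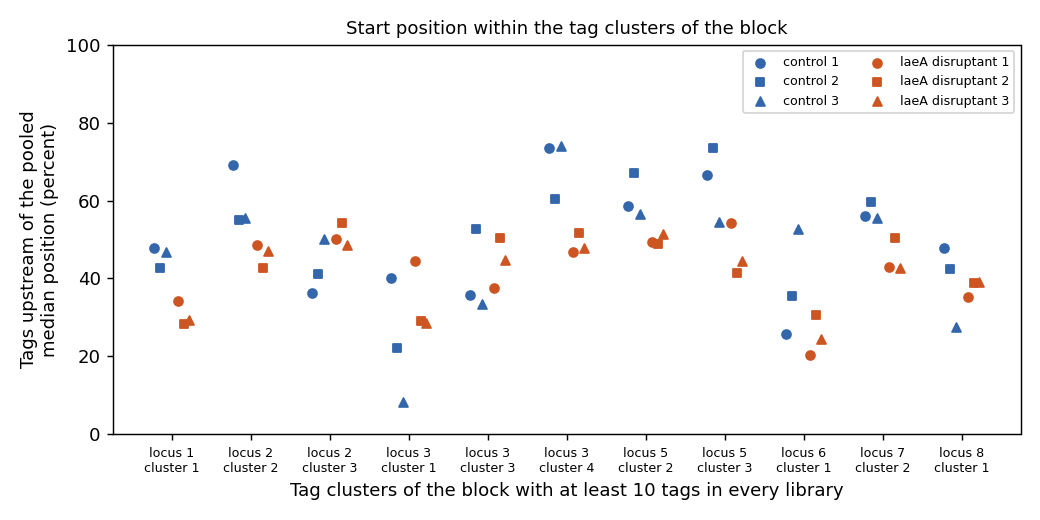
Share of tags upstream of the pooled median position in each library, for the 11 clusters of the block where no library had under 10 tags, named by locus and by order of position within it. In 6 of the 11, every disruptant share lies below every control share.

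In the block the upstream share was lower in the disruptant in 8 of the 11 clusters tested, beside 49.7% of the table. In 6 of the 11 every disruptant share lay below every control share, beside 6.15% of the table. By limma 6 had an unadjusted p under 0.05, beside 7.27% of the table, and none an adjusted one. This count was 1 with edgeR's diffSpliceDGE, beside 2.26% of the table. It was 3, 3 and 2 without control 2, disruptant 2 and disruptant 3, where the table had 5.57%, 6.05% and 6.61%. Of the other 3 clusters, the first of locus 3 and the third of locus 2 were those not called in level, with differences in log2 ratio of 0.80 and 0.48, and the remaining one, at positions 395584 to 395602, had 0.19.

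At the last cluster of locus 3, 73.5%, 60.3% and 74.0% of control tags and 46.8%, 51.6% and 47.7% of disruptant tags lay upstream. Upstream over downstream tags, as a log2 ratio, differed by -1.24 (95% interval -1.93 to -0.56, before adjustment). At locus 5, positions 402024 to 402158, the difference was -0.63 (95% interval -1.19 to -0.08). At locus 1, with the most control tags, the upstream shares were 47.8%, 42.6% and 46.9% in the controls and 34.3%, 28.3% and 29.2% in the disruptants, a difference of -0.94 (95% interval -1.44 to -0.44). At locus 8 the strains overlapped (-0.09, 95% interval -0.90 to 0.72). Most tags of the block came from the disruptant, so the median that splits upstream from downstream lay close to its own. The split was also made at the median of the mean profile, where each library counts equally, a choice made after seeing the data. By limma 6 of the 11 block clusters then had an unadjusted p under 0.05, beside 7.21% of the table. Control tags in these clusters were few outside locus 1, between 18 and 139 per library for the strongest clusters of loci 2, 3, 5, 6, 7 and 8 and the last of locus 5. The part of these low counts in the differences of position was not tested.

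The most used position was the same in both strains in 9 of the 15 block clusters with tags in both. The span from the 10% to the 90% point of the tags had a median of 39.5 bp over the 16 clusters of the block and 27.0 bp over all clusters tested, whose middle range by quartiles was 16 to 44 bp, and 7 of the 16 were under that 27.0 bp. It was 102 bp at the last cluster of locus 3 and 103 bp at locus 6. The most used position of locus 6 held 26.2% of its tags, and that of the last cluster of locus 3 held 9.34%.

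Elsewhere on the scaffold the strongest start sites overlapped between the strains in 4 of 5 cases. The strongest, on the minus strand at positions 674701 to 674898, had 114721, 120335 and 60024 tags in the controls and 91540, 36225 and 71424 in the disruptants. Low values in control 3 and disruptant 2 recurred at positions 779109 to 779425 on the minus strand, with 41599, 32792 and 10080 tags against 45544, 10723 and 22819. At both, the strain means differed by less than the SD between libraries of a strain. The one that differed was on the minus strand at positions 26149 to 26277, with 2492 ± 393 CPM in the controls and 930 ± 105 CPM in the disruptant (SD, n = 3; log2 fold change -1.42, SE 0.22). It accounted for most of the lower total left of the block, which was 7757 ± 536 against 5840 ± 176 CPM with it and 5264 ± 144 against 4909 ± 109 CPM without it (SD, n = 3).

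A second run of higher start sites lay right of the block. From position 1253573 to position 1260278, 13 neighbouring clusters were all called higher, over 6.71 kb. Together they went from 87.7, 124 and 88.9 CPM in the controls to 439, 452 and 393 CPM in the disruptants, a ratio of means of 4.27. The disruptant libraries agreed more closely there than in the block. Of the 5 largest fitted rises outside the block, 4 were in this run, the strongest of them on the plus strand at positions 1257228 to 1257401, with 23.6 ± 9.11 and 167 ± 16.4 CPM (SD, n = 3; log2 fold change 2.82, SE 0.29). The fifth was on the plus strand at positions 558708 to 558729, with 8, 5 and 6 control tags and 48, 200 and 57 disruptant tags.

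Of the 5 largest fitted falls outside the block, 3 lay in runs of 2 or 3 neighbouring clusters called lower, and most were weak sites. On the minus strand at positions 1160543 to 1160561 the controls held 69, 41 and 79 tags and the disruptants 2, 1 and 1, a ratio from summed tags of 41.8 (95% exact counting interval 16.04 to 155). On the plus strand at positions 30502 to 30551 the level was 87.6 ± 18.8 CPM in the controls and 5.93 ± 0.44 CPM in the disruptants (SD, n = 3; log2 fold change -3.88, SE 0.23), the only one of the 5 above 10 CPM in the controls. The other 3 were on the plus strand, at positions 366499 to 366524 in the left flank described above, 108364 to 108394 and 119961 to 119991. The longest run of neighbouring clusters called lower had 4 clusters, from position 23484 to position 26277.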

How the data were processed

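CAGE tags of 6 libraries were used, 3 of each strain. The authors deposited whole-number tag counts per position and strand, with no normalization, and the submitters' processing notes name FastQC, BWA and bedtools without a role or version. The genome build is not given in the sources used here. Positions are counted from 1, while the deposited table counts from 0, and its convention for the minus strand is not stated. The scaffold, its clusters and all lists were chosen with earlier results of these data known. Pairs of libraries of a strain differed by 32.6 to 94.7 times the sampling noise (chi-square per degree of freedom), so none was a copy.

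Clusters of the whole table were fitted with edgeR 4.0.16 (TMM scaling, quasi-likelihood test, R 4.3.3), and p-values were adjusted over all of them. The share of tags upstream of the pooled median was tested with limma 3.58.1 on log2 ratios with 0.5 added to both counts. Clusters named are those of the block, the 4 nearest on each side, the 5 strongest of the scaffold, the 5 largest called changes in each direction outside the block and the 3 with the smallest start position p. The alternatives were DESeq2 1.42.0, other scalings, filters and cluster definitions, a replicate term, and leaving out each library.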

Additional observations from a re-analysis of the deposited data

Results flagged for a closer look

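Tags outside the tag clusters, which the comparisons above leave out, were also higher in the disruptant within and beside the block. Inside the block they came to 109.754 CPM on average in the disruptant, above each of the controls (12.9, 16.8 and 16.9 CPM). In the stretch of 11008 bp without clusters between loci 6 and 7 the disruptant mean was 23.9356 CPM and the controls held 1.79, 2.81 and 3.18 CPM. On its plus strand the means were 1.41 and 19.5 CPM, and on its minus strand 1.18 and 4.44 CPM. In the stretch left of the block the disruptant mean was 4.77006 CPM, against 1.51, 2.59 and 1.65 CPM in the controls. In the stretch right of it the mean was 8.45866 CPM, against 4.64, 4.75 and 7.12 CPM. In all 4 counts every disruptant library was above every control library, which held for 16.3% of tag clusters over the table. The counts share tags and are not separate observations. How often it holds for stretches without clusters was not computed. In the right stretch the nearest libraries were close, 7.12 CPM in control 3 and 7.86 CPM in disruptant 1. These values share the contrast that chose the block and only describe it. Over the rest of the scaffold, tags outside clusters came to 3277 CPM in the controls and 2979 CPM in the disruptant, with every disruptant library below every control library.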

How the results depend on the processing

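The block's level kept its direction throughout, with a log2 ratio of 3.89 to 4.34 against 4.18, and 13 to 15 of its clusters were called. The exception was the filter of at least 10 tags in every library, which left 11 block clusters to test, of which 9 were called. Calls on the scaffold numbered 92, and outside the block 78. With DESeq2's Wald test they were 140 and 126, with at least 10 tags in every library 56 and 47, with 0.5 CPM as the minimum per position 55 and 40, and at an adjusted p under 0.01 they were 39 and 25. Over the table these settings called 11.9%, 6.18%, 6.16% and 3.00% of clusters, in that order, against 8.11%. Leaving out 1 library gave 46 to 122 on the scaffold and 32 to 108 outside the block, beside 3.41% to 10.3% of the table. Of the 92 calls, 62.0% were higher in the disruptant, against 48.6% with DESeq2's Wald test and 45.9% without control 3. Clusters called lower numbered 35, and 17 to 66 with 1 library left out, the extremes being without control 1 or disruptant 3 and without control 3. With a replicate block 53 clusters were called on the scaffold and 39 outside the block, beside 4.51% of the table. No steady pairing of libraries by number was seen, though 3 libraries a strain cannot exclude one. The correlations of same-numbered libraries were 0.468, -0.417 and -0.0868, and 1 of 6 libraries correlated best with its own number. Start position gave 0 calls under every alternative. Stopping the walk at 3 clusters, counting the median position as upstream, splitting at the median of the mean profile and leaving out the strongest cluster were chosen after seeing the data. Depth limits the start positions and ratios of clusters with few control tags.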
